A study of Caenorhabditis elegans with 9 samples.

Results

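The genes described here are the 85 hedgehog-related and Patched-related genes of the nematode Caenorhabditis elegans, out of 46926 genes in the count files. The families were chosen with earlier results of these data known, and their members were taken by name. Every gene was included whose WormBase symbol is hog, qua, wrt, grd, grl, ptc or ptr followed by a number. This gave 1 hog, 1 qua, 10 wrt, 16 grd and 31 grl genes, which are hedgehog-related, and 2 ptc and 24 ptr genes, which are related to the receptor Patched. Messenger RNA was sequenced from whole worms of synchronized young adult populations in 9 libraries, 3 each of the genotypes labelled PATR1, UNC5 and WT. The design text describes a strain with the stop allele Cys348* of unc-5, a receptor for the axon guidance cue netrin, beside wild type. The labels tie that allele to neither the UNC5 nor the PATR1 libraries, do not say what PATR1 stands for, and name no further allele, sex or agent. Each group label is therefore used as given, PATR1 and UNC5 are called the mutant groups, and each mutant group was set against WT and against the other. Nothing in the labels says whether the libraries of a group came from separately grown worms, so the p-values measure the spread between these libraries, and genotype cannot be told apart from any difference in culture or stage between the groups.

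In flies and vertebrates, Hedgehog is a secreted and lipid-modified signal, Patched is the membrane protein that receives it, and Smoothened carries the signal into the cell. Caenorhabditis elegans has no clear Hedgehog or Smoothened. It has instead a large set of secreted proteins with a Wart, Ground or Ground-like domain (the warthog, groundhog and ground-like families, wrt, grd and grl), some of which end in the self-cleaving Hog domain that Hedgehog also carries, and the single proteins hog-1 and quahog (qua-1). The ptc and ptr genes encode Patched and Patched-like membrane proteins with a sterol-sensing domain. Many of these genes are known for expression in the epidermis and other epithelia that lay down cuticle, for RNA levels that cycle with the larval moults, and for roles in moulting, cuticle and the apical extracellular matrix.

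The libraries held 38673206 to 60642199 reads counted to genes. Reads that could not be placed in the genome made up 2.86% to 6.02% in PATR1, 0.667% to 0.937% in UNC5 and 0.621% to 0.629% in WT. The unc-5 gene itself had 13.8, 13.8 and 12.8 CPM in PATR1, 10.1, 9.88 and 10.3 CPM in UNC5, and 16.7, 18.4 and 18.3 CPM in WT, with every mutant library below every WT library. An RNA level does not show a stop codon, so it checks neither label. Levels of 1 gene across libraries, or summed over genes, are given in CPM, counts divided by the library size scaled with TMM factors. Levels of different genes are ranked only in TPM, which divides by exon length. A gene is said to have risen or fallen at an adjusted p below 0.05 by edgeR's quasi-likelihood test with Benjamini-Hochberg adjustment over the 17512 genes tested, and is called more than 2-fold changed where its log2 fold change also lies beyond 1. Log2 fold changes are given ± the SE of the fit, their absolute value divided by the square root of the test's F statistic. Where a group had only a few reads, this SE can be smaller than the counting error of those reads. It then overstates the precision of the value. Of the 85 genes, 80 had enough reads to be tested. Among those with a mean of at least 5 CPM, the median coefficient of variation between libraries was 3.42% in PATR1 (47 genes), 2.90% in UNC5 (52 genes) and 2.78% in WT (61 genes).

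By level per length, the ground-like gene grl-16 came first in all 3 groups, with 282 ± 2.79 TPM in PATR1, 444 ± 9.5 TPM in UNC5 and 525 ± 18.2 TPM in WT (SD, n = 3 each). The groundhog gene grd-5 was next in both mutant groups and ranked 3 in WT, with 199.98 ± 4.49 TPM in PATR1, 285 ± 14.3 TPM in UNC5 and 295 ± 3.76 TPM in WT (SD, n = 3 each). In WT, the ground-like genes grl-20, grl-23, grl-9 and grl-25 held places 2, 4, 5 and 6, at means of 358, 262, 235.13 and 234.96 TPM, and the libraries of grl-23, grl-9 and grl-25 overlapped their neighbours in the order. In PATR1 and UNC5 the highest mean of any of these 4 was 2.53 TPM, for grl-25 in UNC5. In those groups grd-14, grd-3, grl-4, grl-7 and ptc-1 ranked high, and ptr-2 was the highest ptr gene. In WT grd-14, grl-4, grd-3 and grl-7 held places 7, 8, 10 and 12. Means of at least 10 TPM were found for 38 genes in PATR1, 40 in UNC5 and 52 in WT, and means under 1 TPM for 23 genes in PATR1, 20 in UNC5 and 13 in WT.

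**Figure D1:**
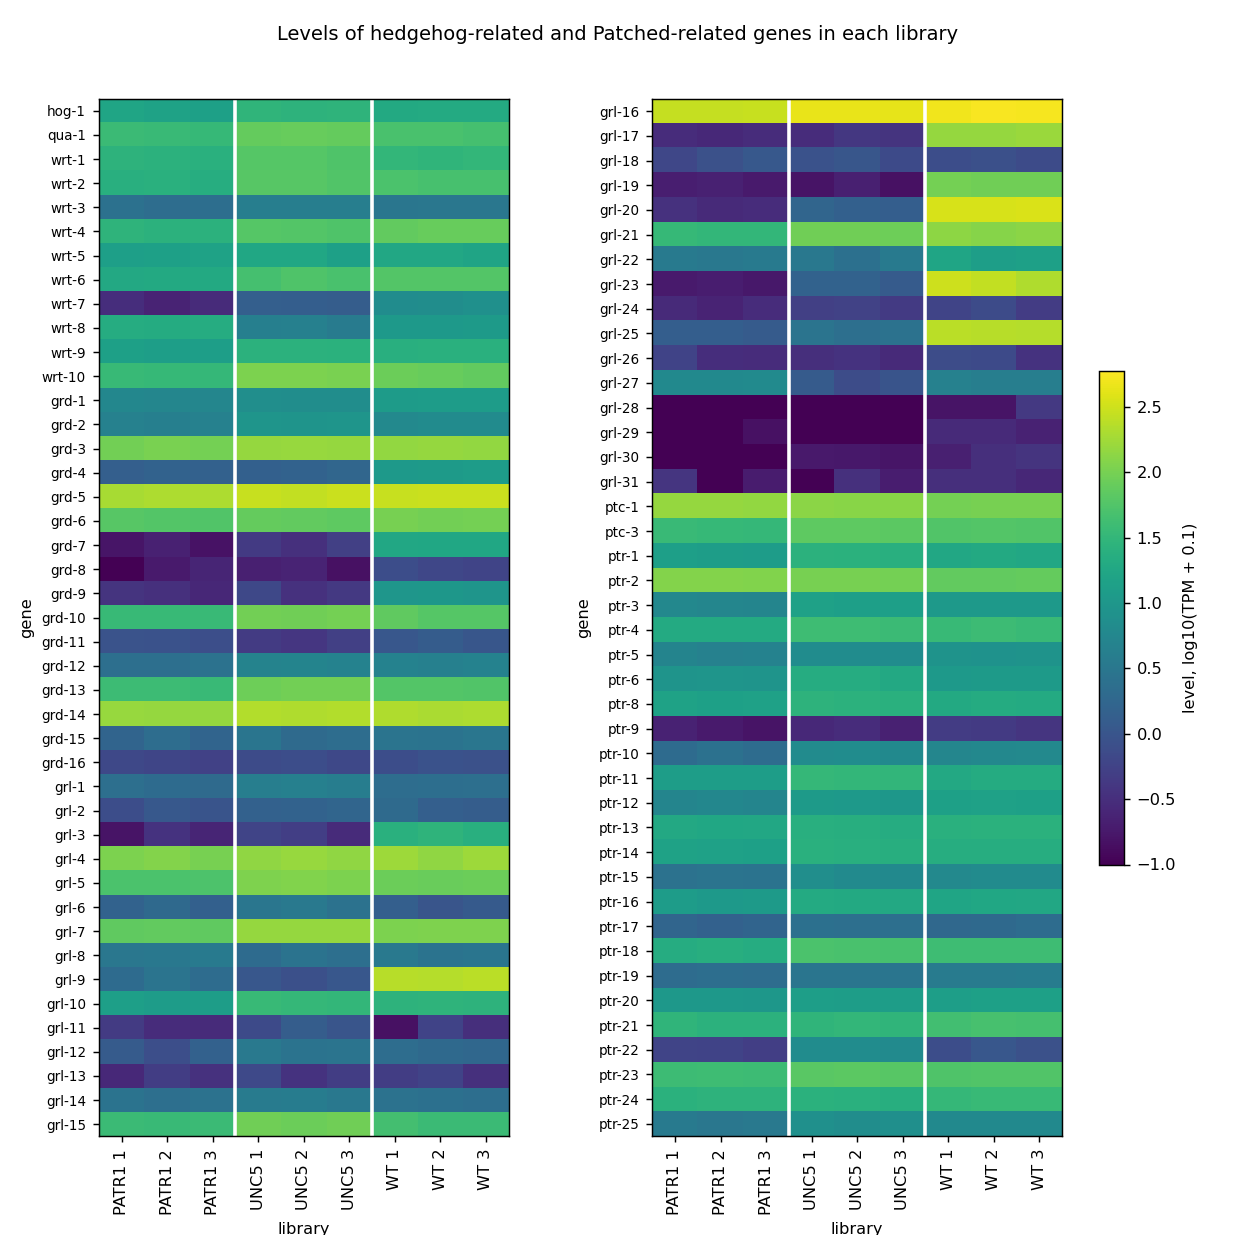
Level of each of the 85 genes (rows, in 2 columns) in each of the 9 libraries (PATR1, UNC5, WT), as log10(TPM + 0.1), from dark (low) to light (high). grl-9, grl-17, grl-19, grl-20, grl-23 and grl-25 are light in the 3 WT libraries and much darker in the PATR1 and UNC5 libraries, while most other genes keep a similar shade across groups.

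In the comparison of UNC5 with WT, 40 of the 80 tested genes rose, 29 fell and 11 did not pass. Of all genes tested, 49.8% rose and 27% fell, so the share that rose among these genes, 50%, was near the background, and the share that fell, 36.25%, was above it. Without a low-count filter, which alters the scaling, 32 of the 85 genes rose and 37 fell, and the median log2 fold change of all genes tested was 0, beside 0.16. With only the 6 libraries compared it was 0.0080, so that small values in UNC5 against WT depend on the scaling. In PATR1 against WT, 5 rose, 66 fell and 9 did not pass, whereas 38.7% of all genes tested rose and 44.9% fell. In PATR1 against UNC5, 8 rose, 63 fell and 9 did not pass, against 37.8% and 40.9% of all genes. The comparisons with WT share the WT libraries, and the values of each are given side by side.

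The sizes of change differed between the comparisons. The median log2 fold change of the 80 genes was 0.18 in UNC5 against WT, -0.61 in PATR1 against WT and -0.85 in PATR1 against UNC5, beside 0.16, -0.11 and -0.042 over all genes tested. A change in either direction was found for 76.8%, 83.6% and 78.7% of all genes tested. In UNC5 against WT 5 genes were called more than 2-fold higher and 17 lower, where 7.09% and 13.7% of all genes were. For PATR1 against WT 1 was called higher and 23 lower, where 6.02% and 10.5% of all genes were. In PATR1 against UNC5 4 were called higher and 35 lower, where 9.46% and 11.5% of all genes were. Groups whose libraries stood fully apart were found for 67, 70 and 67 of the 80 genes in these comparisons, beside 77.9%, 84% and 79.5% of all genes. These are whole-worm RNA levels, in which fewer cells of a type and less RNA per cell cannot be told apart.

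**Figure D2:**
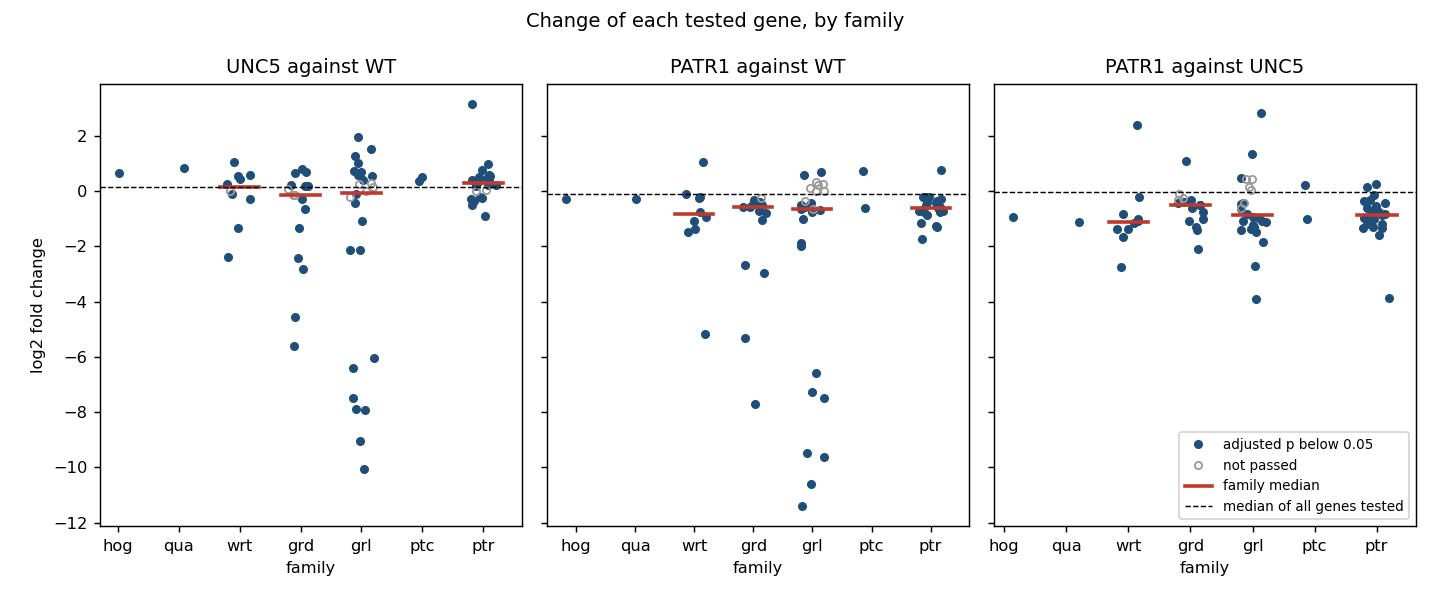
Log2 fold change of each of the 80 tested genes, by family, in UNC5 against WT, PATR1 against WT and PATR1 against UNC5 (filled points, adjusted p below 0.05; open points, not passed; red bars, family medians for families of more than 2 genes; dashed line, median of all genes tested). A tail of ground-like genes and a few groundhog genes below -4 appears in both comparisons with WT, and the ptr genes lie mostly above the dashed line in UNC5 against WT and below it in both PATR1 comparisons.

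The 2 single-gene families moved alike. hog-1 (chromosome X, 5851953 to 5854263 in WBcel235), which encodes a protein with a Hog domain, had 11.6, 10.8 and 10.3 CPM in PATR1, 21, 19.8 and 21.3 CPM in UNC5, and 12.8, 13.5 and 13.3 CPM in WT. Its levels ranked UNC5, WT, PATR1 with no overlap between groups. Its log2 fold change was 0.65 ± 0.053 (adjusted p = 1.13e-12) in UNC5 against WT, -0.28 ± 0.058 (adjusted p = 4.24e-05) in PATR1 against WT and -0.93 ± 0.057 (adjusted p = 9.10e-16) in PATR1 against UNC5. qua-1 (chromosome II, 8198803 to 8204004), which is needed for moulting, had 109, 108 and 99.2 CPM in PATR1, 225, 238 and 231 CPM in UNC5, and 132, 133 and 124 CPM in WT. The order of the groups was the same, again without overlap. Its log2 fold changes were 0.84 ± 0.036 (adjusted p = 2.25e-19), -0.30 ± 0.037 (adjusted p = 1.30e-08) and -1.13 ± 0.037 (adjusted p = 2.76e-22) in the same 3 comparisons.

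Of the 10 warthog genes, 5 rose, 4 fell and 1 did not pass in UNC5 against WT. Compared with WT, 1 rose, 9 fell and 0 did not pass in PATR1. Compared with UNC5, 1 rose, 9 fell and 0 did not pass. Over all genes tested, 49.8% rose and 27% fell in UNC5 against WT, 38.7% and 44.9% in PATR1 against WT, and 37.8% and 40.9% in PATR1 against UNC5. In UNC5 4 warthog genes rose and 5 fell without a low-count filter. wrt-10 (chromosome II, 7533262 to 7534563), the most abundant warthog gene per length, had 30.2, 29.1 and 28.7 CPM in PATR1, 92.8, 91.8 and 92.1 CPM in UNC5, and 66.8, 62.6 and 58.4 CPM in WT. Its UNC5 libraries lay above the WT libraries and its PATR1 libraries far below both. The log2 fold changes were 0.56 ± 0.039 (adjusted p = 1.81e-14) in UNC5 against WT, -1.09 ± 0.043 (adjusted p = 4.38e-21) in PATR1 against WT and -1.65 ± 0.043 (adjusted p = 1.09e-25) in PATR1 against UNC5. wrt-1 (chromosome II, 7530996 to 7533246) had 36.2, 36.3 and 33.9 CPM in PATR1, 79.8, 80.5 and 74.9 CPM in UNC5, and 38.5, 36.1 and 39.1 CPM in WT. The UNC5 libraries stood far above both other groups, whose libraries overlapped. It rose in UNC5 against WT by 1.05 ± 0.040 (adjusted p = 2.35e-21) on the log2 scale. Its small fall in PATR1 against WT, -0.098 ± 0.042 (adjusted p = 0.0341), was lost without PATR1 replicate 3 (adjusted p = 0.226) or WT replicate 3 (adjusted p = 0.0877), and its log2 fold change in PATR1 against UNC5 was -1.15 ± 0.042 (adjusted p = 8.91e-22).

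wrt-7 and wrt-8 lie close together on chromosome V and differed in direction. wrt-7 (chromosome V, 15334754 to 15337505) had 0.271, 0.18 and 0.246 CPM in PATR1, 1.63, 1.6 and 1.6 CPM in UNC5, and 8.1, 8.31 and 9.04 CPM in WT. All WT libraries lay above all UNC5 libraries and these above all PATR1 libraries. This gave log2 fold changes of -2.40 ± 0.095 (adjusted p = 6.03e-21) in UNC5 and -5.16 ± 0.14 (adjusted p = 2.59e-25) in PATR1 against WT and -2.76 ± 0.21 (adjusted p = 1.89e-13) in PATR1 against UNC5. wrt-8 (chromosome V, 15342054 to 15344581) had 29.6, 29 and 30.5 CPM in PATR1, 5.78, 6.02 and 5.14 CPM in UNC5, and 14, 14.1 and 14.6 CPM in WT. PATR1 was highest and UNC5 lowest in every library, and wrt-8 was the only warthog gene that rose in PATR1 against WT. Its log2 fold change was 1.06 ± 0.049 (adjusted p = 3.11e-19) in PATR1 and -1.34 ± 0.064 (adjusted p = 1.03e-18) in UNC5 against WT and 2.40 ± 0.060 (adjusted p = 4.92e-26) in PATR1 against UNC5.

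The other 6 warthog genes changed by less than 2-fold in UNC5 against WT. wrt-2, a gene with reporter expression in the seam cells of the epidermis, had log2 fold changes of 0.43 in UNC5 and -0.94 in PATR1 against WT. wrt-4 and wrt-6 had values of -0.30 and -0.12 in UNC5 against WT and of -1.38 and -1.49 in PATR1 against WT. The UNC5 value of wrt-6 did not pass without UNC5 replicate 1 (adjusted p = 0.250). wrt-3 and wrt-9 had 0.57 and 0.24 in UNC5 against WT and -0.27 and -0.76 in PATR1 against WT, and the rise of wrt-9 did not pass without a low-count filter (adjusted p = 0.159). wrt-3 shares exon sequence with another gene on the same strand, so its reads are uncertain. wrt-5 did not pass in UNC5 against WT (95% interval -0.15 to 0.17), and its adjusted p of 0.0197 in PATR1 against WT was lost without PATR1 replicate 1, PATR1 replicate 2 or WT replicate 1 (adjusted p = 0.0955, 0.0629 and 0.0657).

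Among the 16 groundhog genes, 6 rose, 7 fell and 3 did not pass in UNC5 against WT. When PATR1 was set against WT, 0 rose, 15 fell and 1 did not pass, and when it was set against UNC5, 1 rose, 12 fell and 3 did not pass. The shares over all genes were 49.8% and 27%, 38.7% and 44.9%, and 37.8% and 40.9% in the same order. In UNC5 3 groundhog genes rose and 8 fell without a low-count filter, and with only the 6 libraries compared 3 rose and 7 fell. grd-5 (chromosome V, 8619032 to 8619870), the most abundant, had 77.1, 81.4 and 81.8 CPM in PATR1, 115, 108 and 122 CPM in UNC5, and 108, 109 and 111 CPM in WT. Its UNC5 and WT libraries overlapped, and it did not pass in UNC5 against WT at a log2 fold change of 0.075 ± 0.036 (adjusted p = 0.0554). All PATR1 libraries lay lower, at -0.45 ± 0.036 (adjusted p = 6.75e-13) against WT and -0.52 ± 0.037 (adjusted p = 3.45e-14) against UNC5. grd-13, grd-3 and grd-10 lie next to each other on chromosome IV, and reporters of grd-10 mark seam cells. Their log2 fold changes were 0.81, 0.17 and 0.69 in UNC5 against WT, -0.51, -0.46 and -0.73 in PATR1 against WT and -1.32, -0.62 and -1.42 in PATR1 against UNC5. The UNC5 rise of grd-3 did not pass under relative log expression factors (adjusted p = 0.113) or without a low-count filter (adjusted p = 1).

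Several groundhog genes were far lower in the mutant groups. grd-7 (chromosome X, 7267870 to 7269479) had 0.0679, 0.129 and 0.0567 CPM in PATR1, 0.356, 0.246 and 0.459 CPM in UNC5, and 17.9, 17.3 and 17.4 CPM in WT. Every mutant library lay far below every WT library. On the log2 scale the changes were -5.60 ± 0.12 (adjusted p = 1.37e-28) in UNC5 and -7.71 ± 0.15 (adjusted p = 2.04e-29) in PATR1 against WT, and -2.11 ± 0.40 (adjusted p = 1.62e-05) in PATR1 against UNC5. grd-9 (chromosome V, 5895321 to 5898602) had 0.407, 0.361 and 0.246 CPM in PATR1, 0.84, 0.369 and 0.503 CPM in UNC5, and 13.6, 13.7 and 12.8 CPM in WT. Its log2 fold changes were -4.56 ± 0.13 (adjusted p = 4.81e-25) in UNC5 and -5.32 ± 0.14 (adjusted p = 1.03e-25) in PATR1 against WT. Its difference between PATR1 and UNC5, -0.77 ± 0.28 (adjusted p = 0.0152), rested on overlapping libraries and did not pass without UNC5 replicate 1 (adjusted p = 0.238) or PATR1 replicate 3 (adjusted p = 0.112).

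grd-4 (chromosome X, 8501222 to 8502288) had 0.747, 0.851 and 0.812 CPM in PATR1, 0.764, 0.836 and 1.01 CPM in UNC5, and 5.87, 6.16 and 6.58 CPM in WT. The mutant groups overlapped with each other and stood apart from WT, at -2.82 ± 0.12 (adjusted p = 1.75e-20) in UNC5 and -2.95 ± 0.12 (adjusted p = 5.77e-21) in PATR1 against WT. Its neighbour grd-14, which ends 184 bases before it on the same strand, had 0.18 and -0.32 in the same comparisons. grd-8 had few reads, 0, 3 and 7 reads in PATR1, 4, 5 and 2 reads in UNC5, and 34, 27 and 26 reads in WT, and log2 fold changes of -2.42 in UNC5 and -2.66 in PATR1 against WT, the second of which was -3.63 without PATR1 replicate 3. grd-1 fell in both, at -0.65 in UNC5 and -1.05 in PATR1.

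grd-11 had 1.95, 1.93 and 1.74 CPM in PATR1, 0.84, 0.713 and 1.05 CPM in UNC5, and 2.09, 2.56 and 2.05 CPM in WT. It was lowest in UNC5, at -1.35 ± 0.15 (adjusted p = 1.52e-09) against WT, did not pass in PATR1 against WT (-0.26 ± 0.12 (adjusted p = 0.054)), and was higher in PATR1 than in UNC5 by 1.09 ± 0.16 (adjusted p = 4.88e-07). The PATR1 libraries of grd-11 all lay below the WT libraries, and that comparison passed under relative log expression factors (adjusted p = 0.0212) and under 5 other alternatives. The remaining groundhog genes, grd-2, grd-6, grd-12, grd-15 and grd-16, had log2 fold changes of 0.67, -0.27, 0.21, -0.15 and -0.13 in UNC5 against WT, where grd-15 and grd-16 did not pass. In PATR1 against WT they had -0.40, -0.59, -0.80, -0.57 and -0.46, and all 5 fell. The rise of grd-12 in UNC5 and the fall of grd-16 in PATR1 each lost the call under several alternatives.

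The ground-like family held the widest changes. Of its 31 genes 26 were tested, of which 9 rose, 12 fell and 5 did not pass in UNC5 against WT. Relative to WT, 2 rose, 16 fell and 8 did not pass in PATR1. Relative to UNC5, 3 rose, 17 fell and 6 did not pass. The shares over all genes were 49.8% and 27%, 38.7% and 44.9%, and 37.8% and 40.9% in the same order. 7 of the ground-like genes, with grd-7, grd-9 and wrt-7, had a log2 fold change below -4 against WT in at least 1 mutant group, a limit set with these values known. In UNC5 9 of the 80 genes were below -4, beside 0.839% of all genes tested, and in PATR1 10 of 80, beside 1.36%. The 10 genes lie on chromosomes III (1), IV (2), V (6) and X (1). The nearest genes outside the limit were grd-4 and grd-8 among the groundhog genes and grl-22 and grl-27 among the ground-like genes, of which grd-4 in PATR1 was lowest, at -2.95.

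grl-19 (chromosome IV, 251908 to 252554) had 2, 2 and 2 reads in PATR1, 1, 2 and 1 reads in UNC5, and 2259, 2122 and 2260 reads in WT. Almost no reads were counted in the mutant libraries, and the log2 fold change was -10.05 ± 0.14 (adjusted p = 1.45e-33) in UNC5 and -9.61 ± 0.13 (adjusted p = 9.48e-34) in PATR1 against WT. PATR1 and UNC5 overlapped, with a 95% interval of -1.14 to 2.02 for their difference. The width of that interval shows that the SEs against WT are too small at these read counts. grl-17 (chromosome V, 13561973 to 13563941) had 0.204, 0.18 and 0.208 CPM in PATR1, 0.204, 0.32 and 0.284 CPM in UNC5, and 142, 141 and 151 CPM in WT. The log2 fold changes were -9.05 ± 0.081 (adjusted p = 7.23e-39) in UNC5 and -9.49 ± 0.083 (adjusted p = 2.92e-39) in PATR1 against WT. Its 2 mutant groups also overlapped, with a 95% interval of -1.11 to 0.23. With unstranded counts its PATR1 value was -8.82. Exons of other genes lie antisense to 329 of its exon bases, and their part in that value was not tested.

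grl-20 (chromosome IV, 2126136 to 2128861) had 0.136, 0.103 and 0.113 CPM in PATR1, 0.891, 0.762 and 0.722 CPM in UNC5, and 188, 183 and 191 CPM in WT. The 3 groups formed 3 separate levels. This gave log2 fold changes of -7.89 ± 0.063 (adjusted p = 3.70e-40) in UNC5 and -10.61 ± 0.081 (adjusted p = 8.01e-41) in PATR1 against WT and -2.72 ± 0.27 (adjusted p = 1.18e-10) in PATR1 against UNC5. grl-23 (chromosome V, 12575191 to 12576897) had 0.0905, 0.103 and 0.0756 CPM in PATR1, 1.43, 1.5 and 1.18 CPM in UNC5, and 292, 249 and 198 CPM in WT. Its WT libraries were the most spread of any gene here with a mean of at least 5 CPM, with a coefficient of variation of 18.9%, yet every mutant library lay far below the lowest of them. On the log2 scale the changes were -7.50 ± 0.25 (adjusted p = 1.32e-07) in UNC5 and -11.40 ± 0.35 (adjusted p = 7.22e-08) in PATR1 against WT, and -3.91 ± 1.09 (adjusted p = 0.0149) in PATR1 against UNC5.

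grl-25 (chromosome III, 8962293 to 8965707) had 2.69, 2.81 and 2.51 CPM in PATR1, 6.06, 5.06 and 5.84 CPM in UNC5, and 497, 474 and 475 CPM in WT. These were again 3 separate levels, at -6.41 ± 0.048 (adjusted p = 1.19e-40) in UNC5 and -7.50 ± 0.053 (adjusted p = 1.09e-41) in PATR1 against WT and -1.09 ± 0.087 (adjusted p = 7.40e-13) in PATR1 against UNC5. grl-9 (chromosome V, 6730216 to 6731694) had 1.58, 2.24 and 1.7 CPM in PATR1, 0.764, 0.59 and 0.788 CPM in UNC5, and 174, 172 and 182 CPM in WT. Of the 10 genes it was the only one for which PATR1 was called above UNC5, by 1.34 ± 0.16 (adjusted p = 8.88e-09), while both fell against WT, at -7.94 ± 0.073 (adjusted p = 1.46e-38) in UNC5 and -6.60 ± 0.062 (adjusted p = 2.42e-38) in PATR1. grl-8, which lies 136 bases from grl-9 on the same strand, had 1.88 CPM in PATR1, 1.37 CPM in UNC5 and 1.6 CPM in WT and did not pass against WT in either mutant group. Its log2 fold changes were -0.22 in UNC5 and 0.24 in PATR1. The UNC5 value passed under 4 alternatives, among them unstranded counts (-0.40, adjusted p = 0.0119), and the PATR1 value passed without WT replicate 1 (0.32, adjusted p = 0.0385). grl-3 (chromosome V, 11411511 to 11412894) had 0.0452, 0.206 and 0.113 CPM in PATR1, 0.382, 0.32 and 0.153 CPM in UNC5, and 18.4, 20.5 and 17.4 CPM in WT. The log2 fold changes were -6.06 ± 0.15 (adjusted p = 4.68e-24) in UNC5 and -7.28 ± 0.17 (adjusted p = 1.82e-24) in PATR1 against WT, and its value in PATR1 against UNC5, -1.23 ± 0.47 (adjusted p = 0.019), did not pass when any of 4 single libraries was left out.

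**Figure D3:**
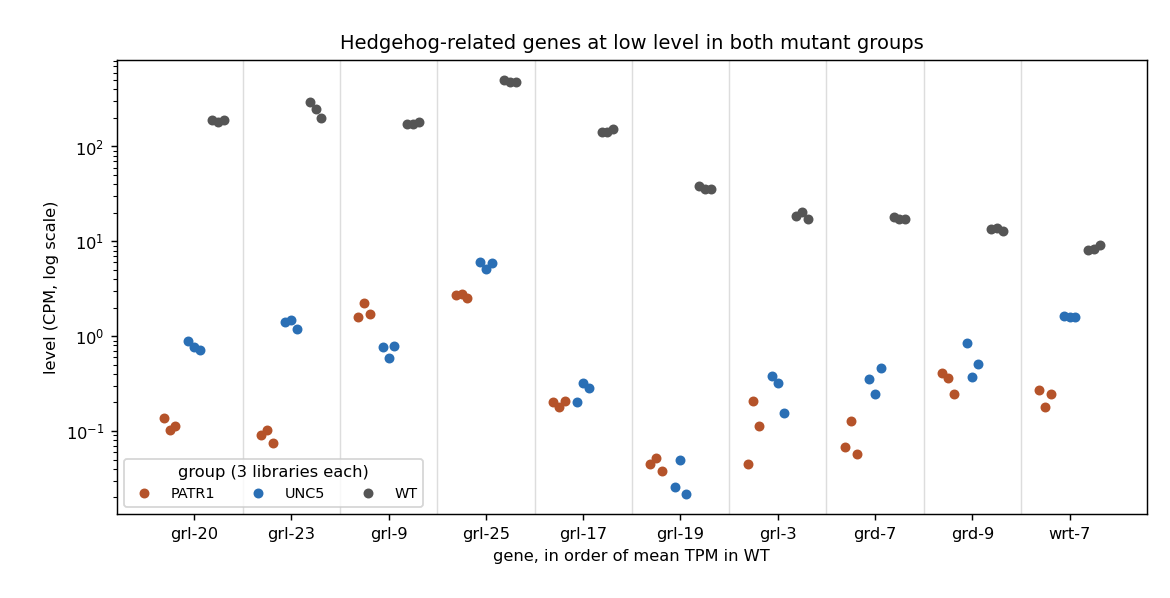
Level in CPM (log scale) of the 10 genes with a log2 fold change below -4 in at least 1 mutant group against WT, in each library of PATR1 (brown), UNC5 (blue) and WT (grey), 3 points a group. Every WT point lies above every mutant point of the same gene, and PATR1 lies below UNC5 for grl-20, grl-23, grl-25, grd-7 and wrt-7 and above it for grl-9.

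Summed over these 10 genes, the level was 5.31 to 6.37 CPM in PATR1, 10.8 to 12.6 CPM in UNC5 and 1289.8 to 1389 CPM in WT. In CPM that was 0.184% to 0.218% of the summed level of all 85 genes in PATR1, 0.247% to 0.288% in UNC5 and 25.9% to 27.7% in WT. In TPM the shares were 0.215% to 0.262% in PATR1, 0.254% to 0.291% in UNC5 and 30.5% to 31.98% in WT. The other 75 genes summed to 2876 to 2918 CPM in PATR1, 4310.3 to 4372 CPM in UNC5 and 3631 to 3685 CPM in WT. Over all 85 genes the sum was 2881.5 to 2924.5 CPM in PATR1, 4321.9 to 4383 CPM in UNC5 and 4974.7 to 5020.3 CPM in WT. WT was thus highest over all 85 genes, and UNC5 without the 10 genes, while PATR1 was lowest in both sums. The 10 genes were picked by their fall against WT in these data. Leaving them out therefore takes most from WT by construction.

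grl-16 (chromosome I, 572173 to 575120), the most abundant gene of all 85, had 359, 360.1 and 369 CPM in PATR1, 574, 572 and 571 CPM in UNC5, and 601, 641 and 623 CPM in WT. Its WT libraries were highest and its PATR1 libraries lowest, with log2 fold changes of -0.12 ± 0.032 (adjusted p = 0.00146) in UNC5 and -0.78 ± 0.033 (adjusted p = 3.48e-20) in PATR1 against WT. grl-21 and ptr-24, which have been linked to lipid storage, had log2 fold changes of -0.43 and -0.36 in UNC5 and of -1.90 and -0.23 in PATR1 against WT. grl-22 had 1.5 CPM in PATR1, 1.37 CPM in UNC5 and 6.06 CPM in WT, at -2.14 in UNC5 and -2.004 in PATR1. grl-5, grl-7 and grl-10 rose in UNC5, by 0.53, 0.58 and 0.38, and fell in PATR1, at -0.60, -0.49 and -1.02. grl-4 was at 0.0015 in UNC5, where it did not pass, and at -0.43 in PATR1.

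Some ground-like genes were higher in UNC5 than in both other groups. grl-15 (chromosome III, 12232632 to 12236014) had 27.3, 26.7 and 28.1 CPM in PATR1, 66.2, 64 and 70.2 CPM in UNC5, and 30.4, 25.9 and 26.2 CPM in WT. PATR1 and WT overlapped, with a 95% interval of -0.11 to 0.10 for their log2 difference, and UNC5 exceeded WT by 1.28 ± 0.049 (adjusted p = 5.07e-19). grl-6 (chromosome X, 6449959 to 6450939) had 0.86, 1.13 and 0.831 CPM in PATR1, 1.78, 1.99 and 1.6 CPM in UNC5, and 0.743, 0.502 and 0.603 CPM in WT. It rose by 1.53 ± 0.17 (adjusted p = 9.97e-10) in UNC5 and by 0.59 ± 0.19 (adjusted p = 0.00585) in PATR1 against WT. grl-1 had 1.9 CPM in PATR1, 3.76 CPM in UNC5 and 1.88 CPM in WT, with 1.00 in UNC5, and did not pass in PATR1 (95% interval -0.23 to 0.25).

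grl-11 (chromosome III, 9117349 to 9118364) had only 6, 3 and 4 reads in PATR1, 9, 19 and 16 reads in UNC5, and 1, 10 and 5 reads in WT. Its UNC5 libraries exceeded all others, at 1.96 ± 0.44 (adjusted p = 1.60e-04) against WT, a value that became 2.77 without WT replicate 2, and its log2 fold change in PATR1 against UNC5 was -1.84 ± 0.46 (adjusted p = 6.20e-04). grl-27 (chromosome V, 3575055 to 3575859) had 2.26, 2.32 and 2.4 CPM in PATR1, 0.407, 0.246 and 0.328 CPM in UNC5, and 1.55, 1.39 and 1.41 CPM in WT. It was highest in PATR1 and lowest in UNC5 in every library. The log2 fold change was 0.68 ± 0.12 (adjusted p = 5.27e-06) in PATR1 and -2.14 ± 0.20 (adjusted p = 1.44e-11) in UNC5 against WT, and PATR1 exceeded UNC5 by 2.83 ± 0.18 (adjusted p = 4.26e-15). grl-12 had 0.71 in UNC5 and -0.66 in PATR1 against WT. grl-14 had 0.67 and 0.20, the second of which did not pass.

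The remaining tested ground-like genes were low. grl-2, which is expressed in the duct and pore cells of the excretory system, had 0.822 CPM in PATR1, 1.44 CPM in UNC5 and 1.33 CPM in WT and passed in PATR1 (-0.70) but not in UNC5 (0.13). grl-18, a marker of inner labial socket glia, had 0.829 CPM in PATR1, 0.827 CPM in UNC5 and 0.677 CPM in WT and passed in neither comparison (95% intervals -0.16 to 0.71 in UNC5 and -0.10 to 0.74 in PATR1). Its PATR1 value passed with unstranded counts (0.49, adjusted p = 9.60e-04) and without PATR1 replicate 1 (0.53, adjusted p = 0.0210). grl-13 and grl-26 had means of 0.18 CPM in PATR1, 0.272 CPM in UNC5 and 0.227 CPM in WT and of 0.141 CPM in PATR1, 0.104 CPM in UNC5 and 0.222 CPM in WT. Of these, grl-26 alone passed in a comparison with WT, in UNC5 (-1.07 ± 0.46 (adjusted p = 0.036)), and that call was lost when any UNC5 library was left out.

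The 5 genes too low to be tested were all ground-like. grl-24 had 3, 2 and 4 reads in PATR1, 6, 7 and 6 reads in UNC5, and 10, 13 and 8 reads in WT. grl-28, grl-29, grl-30 and grl-31 form a cluster on chromosome V from 3551346 to 3557778. grl-28 had 0, 0 and 0 reads in PATR1, 0, 0 and 0 reads in UNC5, and 1, 1 and 6 reads in WT. grl-29 had 0, 0 and 1 reads in PATR1, 0, 0 and 0 reads in UNC5, and 4, 4 and 3 reads in WT, grl-30 had 0, 0 and 0 reads in PATR1, 1, 1 and 1 reads in UNC5, and 2, 4 and 5 reads in WT, and grl-31 had 5, 0 and 2 reads in PATR1, 0, 4 and 2 reads in UNC5, and 5, 5 and 4 reads in WT. No comparison was made for these 5 genes at this depth.

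**Figure D4:**
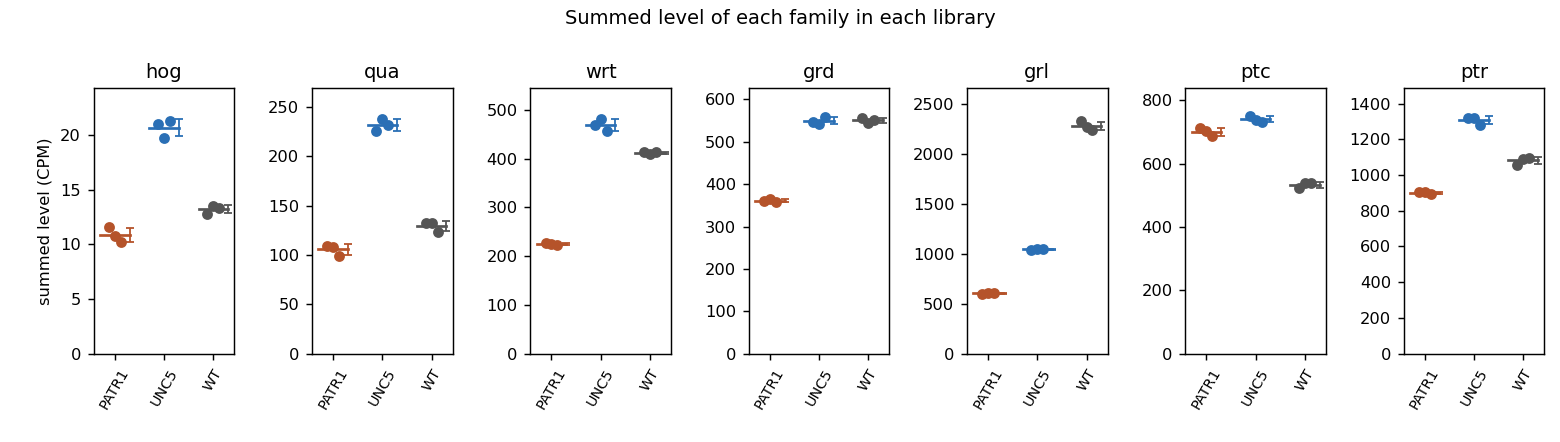
Summed level in CPM of all members of each family in each library (points), with the group mean (line) and SD (bar) for PATR1, UNC5 and WT; each panel has its own axis from 0. In the grl panel WT is highest and PATR1 lowest, in hog, qua, wrt and ptr UNC5 is highest and PATR1 lowest, and in ptc both mutant groups lie above WT.

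By family, the summed level of the ground-like genes was 597 to 608 CPM in PATR1, 1037 to 1046 CPM in UNC5 and 2239.7 to 2325 CPM in WT. That of the groundhog genes was 358 to 364 CPM in PATR1, 543 to 559 CPM in UNC5 and 544 to 555 CPM in WT, with UNC5 and WT overlapping. The warthog genes summed to 223 to 228 CPM in PATR1, 456 to 481 CPM in UNC5 and 410.1 to 414 CPM in WT. The ptr genes summed to 896 to 907 CPM in PATR1, 1279.8 to 1319 CPM in UNC5 and 1058 to 1095 CPM in WT, and the ptc genes to 687 to 711 CPM in PATR1, 733 to 749.7 CPM in UNC5 and 523 to 538 CPM in WT, the only family whose sum was higher in both mutant groups than in WT in every library.

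The ptc and ptr genes are called receptor genes here for their relation to Patched, and their function was not examined. They moved in narrower ranges than the hedgehog-related genes. Only their highest value in UNC5 against WT, 3.16 for ptr-22, lay beyond that range, above the hedgehog-related maximum of 1.96. Of the 26 ptc and ptr genes, all of which were tested, 18 rose, 6 fell and 2 did not pass in UNC5 against WT. Compared with WT, 2 rose, 24 fell and 0 did not pass in PATR1. Compared with UNC5, 3 rose, 23 fell and 0 did not pass. The background shares given above were 49.8% and 27% for UNC5, 38.7% and 44.9% for PATR1 and 37.8% and 40.9% for PATR1 against UNC5. In UNC5 14 receptor genes rose and 8 fell without a low-count filter. Their median log2 fold change was 0.33 in UNC5 against WT, beside 0.16 over all genes. It stayed between 0.16 and 0.34 under the other normalizations, filters and tests, over which the median of all genes lay between 0 and 0.16. It was -0.61 in PATR1 against WT and -0.85 in PATR1 against UNC5. None of the 26 genes was below -4 in any comparison with WT.

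ptc-1 (chromosome II, 7893222 to 7900515), the Patched homolog required for cell division in the germline, had 588, 588 and 574 CPM in PATR1, 513, 502 and 499 CPM in UNC5, and 345, 354 and 357 CPM in WT. PATR1 was highest, UNC5 between and WT lowest in every library. This gave log2 fold changes of 0.52 ± 0.032 (adjusted p = 5.77e-16) in UNC5 and 0.73 ± 0.032 (adjusted p = 7.41e-20) in PATR1 against WT and 0.21 ± 0.032 (adjusted p = 4.77e-07) in PATR1 against UNC5. ptr-2 (chromosome I, 3789309 to 3792797), the most abundant ptr gene, showed the same order, with 261, 266 and 262 CPM in PATR1, 224, 224 and 220.1 CPM in UNC5, and 154, 149.8 and 157 CPM in WT. On the log2 scale the changes were 0.54 ± 0.030 (adjusted p = 1.06e-16), 0.77 ± 0.030 (adjusted p = 5.48e-21) and 0.24 ± 0.030 (adjusted p = 1.78e-08) in the same comparisons. These were the only receptor genes that rose in both mutant groups against WT.

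The 7 germline and oocyte genes listed for comparison were higher in PATR1 as well. Their summed level was 3206 to 3287 CPM in PATR1, 2181 to 2197 CPM in UNC5 and 1948 to 2004 CPM in WT. In PATR1 against WT 7 of 7 rose (38.7% of all genes tested), and in PATR1 against UNC5 7 of 7 (37.8%). In UNC5 against WT 4 rose and 2 fell, where 49.8% and 27% of all genes tested did. Without a low-count filter 3 rose and 4 fell. Their part in the ptc-1 and ptr-2 values was not tested.

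ptc-3 (chromosome II, 2845412 to 2852593), a Patched homolog with roles in cholesterol balance, water balance and moulting, had 122, 115 and 113 CPM in PATR1, 236, 234 and 233 CPM in UNC5, and 177, 184 and 180.1 CPM in WT. It was highest in UNC5 and lowest in PATR1 with no overlap. Its log2 fold changes were 0.38 ± 0.032 (adjusted p = 2.32e-12) in UNC5 and -0.63 ± 0.033 (adjusted p = 6.88e-18) in PATR1 against WT and -1.01 ± 0.033 (adjusted p = 5.20e-23) in PATR1 against UNC5. In PATR1 against WT and in PATR1 against UNC5, ptc-1 and ptc-3 thus moved in opposite directions.

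ptr-22 (chromosome V, 18919221 to 18931379) had the largest rise of all 80 genes in UNC5. It had 1.04, 1.01 and 0.869 CPM in PATR1, 14.2, 14.5 and 13.8 CPM in UNC5, and 1.35, 1.91 and 1.51 CPM in WT. Each UNC5 library lay far above every other library, at 3.16 ± 0.088 (adjusted p = 4.59e-25) against WT, while PATR1 lay below both, at -0.72 ± 0.15 (adjusted p = 6.24e-05) against WT and -3.87 ± 0.10 (adjusted p = 3.98e-25) against UNC5. ptr-6 was the next ptr gene in order, with 20.8, 21.9 and 21 CPM in PATR1, 49.7, 50.5 and 45.6 CPM in UNC5, and 24, 24.2 and 24.9 CPM in WT. The log2 fold changes were 0.99 ± 0.043 (adjusted p = 7.99e-20) in UNC5 and -0.20 ± 0.047 (adjusted p = 2.47e-04) in PATR1 against WT. It lay just under the 2-fold limit in UNC5.

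ptr-10 (chromosome I, 5662143 to 5667160), a gene with reporter expression in glia and other support cells, had 4.39, 5.49 and 4.76 CPM in PATR1, 14.5, 15.4 and 14.3 CPM in UNC5, and 11, 12 and 12.1 CPM in WT. Its PATR1 libraries were lowest, at -1.27 ± 0.073 (adjusted p = 1.00e-16) against WT, its UNC5 libraries highest, at 0.33 ± 0.061 (adjusted p = 1.31e-05), and the log2 fold change in PATR1 against UNC5 was -1.60 ± 0.074 (adjusted p = 5.67e-19). The other receptor genes called more than 2-fold lower in PATR1 against WT were ptr-12, ptr-15 and ptr-9, at -1.29, -1.15 and -1.75. The level of ptr-9 was low, at 0.181 CPM in PATR1, 0.322 CPM in UNC5 and 0.601 CPM in WT. ptr-15 rose in UNC5 by 0.17 ± 0.062 (adjusted p = 0.0163), a call lost under most other scalings.

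5 more ptr genes, ptr-1, ptr-3, ptr-11, ptr-18 and ptr-25, were called more than 2-fold lower in PATR1 against UNC5, at -1.01, -1.36, -1.36, -1.15 and -1.19, beside ptr-6, ptr-10, ptr-12, ptr-15 and ptr-22. They rose in UNC5 against WT by 0.56, 0.49, 0.77, 0.41 and 0.41 and fell in PATR1 against WT, at -0.44, -0.86, -0.59, -0.74 and -0.77. ptr-4, which acts in moulting and in the apical matrix, had 0.23 in UNC5, which did not pass without a low-count filter (adjusted p = 0.138), and -0.73 in PATR1. ptr-8, ptr-14, ptr-16, ptr-17 and ptr-23 had values from 0.23 to 0.50 in UNC5 and from -0.51 to -0.22 in PATR1 against WT. The PATR1 fall of ptr-17 was lost without PATR1 replicate 2 (adjusted p = 0.122) or WT replicate 3 (adjusted p = 0.125). The UNC5 rises of ptr-14 and ptr-16 did not pass without a low-count filter (adjusted p = 0.259 and 0.0585).

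The receptor genes that fell in UNC5 were ptr-5, ptr-9, ptr-12, ptr-19, ptr-21 and ptr-24, at -0.22, -0.91, -0.28, -0.25, -0.49 and -0.36. ptr-13 and ptr-20 did not pass in UNC5 against WT, with 95% intervals of -0.086 to 0.061 and -0.063 to 0.11, and fell in PATR1 against WT, at -0.36 and -0.30. Both fell in UNC5 without a low-count filter, at -0.18 and -0.14. Besides ptc-1 and ptr-2, ptr-24 was the only receptor gene higher in PATR1 than in UNC5, by 0.13 ± 0.039 (adjusted p = 0.00269), and that call was lost with library sizes alone (adjusted p = 0.150).

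**Figure D5:**
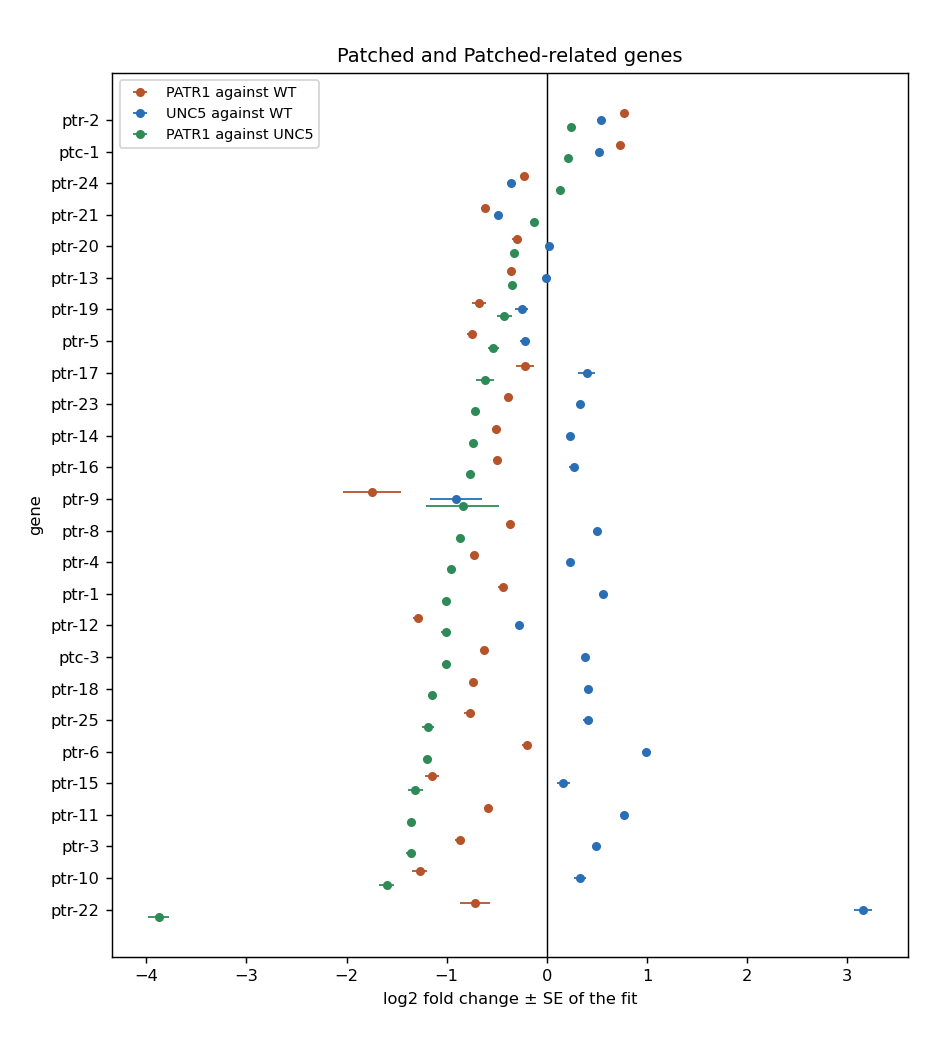
Log2 fold change ± SE of the fit for the 26 ptc and ptr genes in PATR1 against WT (brown), UNC5 against WT (blue) and PATR1 against UNC5 (green), ordered by the last. ptr-2 and ptc-1 stand right of 0 in all 3 comparisons, 18 genes lie right of 0 and passed in UNC5 against WT, and ptr-22 lies farthest from 0 at the bottom.

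A list of 19 genes of the wider pathway held homologs of Hedgehog pathway parts and other proteins with a sterol-sensing domain. Of these, 9 rose, 3 fell and 7 did not pass in UNC5 against WT. When PATR1 was set against WT, 4 rose, 13 fell and 2 did not pass, and when it was set against UNC5, 5 rose, 10 fell and 4 did not pass. Over all genes tested the shares that rose and fell were 49.8% and 27%, 38.7% and 44.9%, and 37.8% and 40.9%. Without a low-count filter 7 of the list rose and 7 fell in UNC5 against WT, and 7 rose and 8 fell in PATR1 against UNC5. hhat-1, a homolog of the enzyme that attaches a fatty acid to Hedgehog, had 14.1, 16.2 and 14.6 CPM in PATR1, 65.9, 64.5 and 65.2 CPM in UNC5, and 32, 30.9 and 31.7 CPM in WT. It was highest in UNC5 and lowest in PATR1 without overlap. This gave log2 fold changes of 1.05 ± 0.041 (adjusted p = 3.58e-21) in UNC5 and -1.08 ± 0.048 (adjusted p = 1.11e-19) in PATR1 against WT and -2.13 ± 0.046 (adjusted p = 1.13e-27) in PATR1 against UNC5. che-14, the homolog of Dispatched, which releases Hedgehog from cells, had 11.4 CPM in PATR1, 29.4 CPM in UNC5 and 19 CPM in WT, at 0.63 in UNC5 and -0.74 in PATR1 against WT.

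daf-6, a Patched-related gene that shapes the channel of sensory organs, had 0.62 in UNC5 and -0.19 in PATR1 against WT. ncr-1 and ncr-2, homologs of the cholesterol transporter NPC1, had 0.14 and -1.73 in UNC5 and -0.46 and -0.52 in PATR1. ncr-2 was higher in PATR1 than in UNC5, by 1.21 ± 0.092 (adjusted p = 2.41e-13). tra-1, the homolog of the Hedgehog transcription factor Gli and a regulator of sex determination, had 95.4 CPM in PATR1, 106 CPM in UNC5 and 111 CPM in WT. It passed in PATR1 against WT (-0.22 ± 0.032 (adjusted p = 1.43e-07)) but not in UNC5 (-0.064 ± 0.032 (adjusted p = 0.0656)), where the call was made under other scalings. lrp-1, the homolog of megalin, which is needed for moulting, had 0.29 in UNC5 and -0.20 in PATR1. scp-1, the homolog of the sterol sensor SCAP, rib-1 and rib-2, which act in heparan sulfate synthesis, and lin-23, the homolog of the F-box protein Slimb, rose in both mutant groups against WT, by 0.34, 0.43, 0.16 and 0.28 in UNC5 and by 0.44, 0.71, 0.31 and 0.53 in PATR1. The UNC5 rise of rib-2 did not pass under relative log expression factors (adjusted p = 0.232) or with only the 6 libraries compared (adjusted p = 0.879), and its value was -0.0087 without a low-count filter (adjusted p = 0.927). That of ncr-1 did not hold without that filter either, at -0.024 (adjusted p = 0.699).

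Many of these genes are known to move with the moulting cycle, so 11 listed regulators and 17 listed genes of moulting and the apical matrix were counted as well. The worms were young adults, and the cycle itself was not followed. Of the regulators, 8 rose, 3 fell and 0 did not pass in UNC5 against WT. Relative to WT, 0 rose, 8 fell and 3 did not pass in PATR1. Relative to UNC5, 1 rose, 10 fell and 0 did not pass. Of the moulting and matrix genes, 14 rose, 2 fell and 1 did not pass in UNC5 against WT. Compared with WT, 0 rose, 17 fell and 0 did not pass in PATR1. Compared with UNC5, 1 rose, 16 fell and 0 did not pass. For both lists the shares over all genes that rose and fell were 49.8% and 27% in UNC5 against WT, 38.7% and 44.9% in PATR1 against WT and 37.8% and 40.9% in PATR1 against UNC5. Without a low-count filter, and under relative log expression factors, 5 of the regulators rose and 3 fell in UNC5. The medians of the second list were 0.45, -0.96 and -1.31, beside 0.16, -0.11 and -0.042 over all genes. Its summed level was 1115 to 1171 CPM in PATR1, 2714 to 2818 CPM in UNC5 and 2102 to 2192 CPM in WT.

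Among the regulators, lin-42, the homolog of the clock gene period, had 162, 160.0 and 152 CPM in PATR1, 358, 345 and 343 CPM in UNC5, and 277, 288 and 302 CPM in WT. UNC5 was highest and PATR1 lowest in every library, at 0.27 ± 0.034 (adjusted p = 1.98e-08) in UNC5 and -0.87 ± 0.035 (adjusted p = 8.66e-21) in PATR1 against WT. nhr-23, the nuclear receptor that drives moulting genes, had 70.4 CPM in PATR1, 62.3 CPM in UNC5 and 67.1 CPM in WT. On the log2 scale the changes were -0.11 ± 0.039 (adjusted p = 0.0121) in UNC5 and 0.068 ± 0.038 (adjusted p = 0.102) in PATR1, the second of which did not pass. The UNC5 call was lost without UNC5 replicate 2, UNC5 replicate 3 or WT replicate 3 (adjusted p = 0.0572, 0.0593 and 0.0790). nhr-25 had 1.01 in UNC5 and -0.29 in PATR1, and myrf-1 -0.33 and -1.22. grh-1 had 0.12 in UNC5, a direction that turned without a low-count filter, and -0.90 in PATR1.

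In the matrix list, fbn-1, which encodes a fibrillin-like protein, had 29.4, 28.4 and 27.9 CPM in PATR1, 114, 109 and 113 CPM in UNC5, and 77.6, 82.2 and 82.4 CPM in WT. It was highest in UNC5 and lowest in PATR1, at 0.47 ± 0.034 (adjusted p = 4.38e-14) in UNC5 and -1.50 ± 0.038 (adjusted p = 3.51e-26) in PATR1 against WT. mlt-10, sym-1 and lpr-3 had 0.74, 0.57 and 0.40 in UNC5 and -0.90, -1.08 and -1.09 in PATR1. nas-37, a protease of the moult, had 0.99 and -0.17. bli-3, the dual oxidase that crosslinks cuticle, fell in both, at -0.77 and -1.32. dex-1 had 27.2, 25.5 and 24.9 CPM in PATR1, 23.7, 23 and 24.2 CPM in UNC5, and 98.2, 104 and 102 CPM in WT. It was the one gene of this list called more than 2-fold lower in both mutant groups, at -2.10 ± 0.041 (adjusted p = 1.76e-29) in UNC5 and -1.97 ± 0.040 (adjusted p = 7.92e-29) in PATR1 against WT.

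Markers of cell types in which these genes are known to be expressed were counted in the same fit, and none of the 121 listed genes was at 0 in any library. Over all genes tested, 49.8% rose and 27% fell in UNC5 and 38.7% rose and 44.9% fell in PATR1 against WT. Of 11 epidermal markers, 6 rose, 4 fell and 1 did not pass in UNC5 and 1 rose, 9 fell and 1 did not pass in PATR1 against WT. In sum they stood at 2777 to 2831 CPM in PATR1, 4105 to 4278 CPM in UNC5 and 3252 to 3274 CPM in WT. Of 7 seam cell markers, 5 rose, 1 fell and 1 did not pass in UNC5 and 2 rose, 5 fell and 0 did not pass in PATR1 against WT. Added up, they came to 37.2 to 37.7 CPM in PATR1, 44.9 to 47.1 CPM in UNC5 and 32.6 to 33.8 CPM in WT. Of 5 tested glial markers out of 6, 2 rose, 1 fell and 2 did not pass in UNC5 and 1 rose, 3 fell and 1 did not pass in PATR1 against WT. Their summed level was 57.5 to 58.5 CPM in PATR1, 51.9 to 53.2 CPM in UNC5 and 60.5 to 64.6 CPM in WT. Of 6 excretory markers, 2 rose, 2 fell and 2 did not pass in UNC5 and 1 rose, 4 fell and 1 did not pass in PATR1 against WT. In sum they stood at 97.3 to 101 CPM in PATR1, 99.7 to 101 CPM in UNC5 and 104 to 108 CPM in WT. Without a low-count filter the UNC5 counts were 5 rises and 2 falls for the seam cell markers, 2 and 2 for the glial markers, and 0 and 3 for the excretory markers.

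Markers of other tissues were counted in the same way. Of 5 vulval and uterine markers, 2 rose, 2 fell and 1 did not pass in UNC5 and 0 rose, 2 fell and 3 did not pass in PATR1 against WT. Added up, they came to 44.4 to 46.9 CPM in PATR1, 57 to 60.1 CPM in UNC5 and 61.9 to 62.5 CPM in WT. All 5 pharyngeal markers fell in PATR1 and 4 in UNC5, with a summed level of 243 to 257 CPM in PATR1, 315 to 323 CPM in UNC5 and 564 to 593 CPM in WT. Of 7 neuronal markers, 5 rose, 0 fell and 2 did not pass in UNC5 and 1 rose, 5 fell and 1 did not pass in PATR1 against WT. Their summed level was 406 to 411 CPM in PATR1, 543 to 548 CPM in UNC5 and 461 to 491 CPM in WT. In UNC5 1 neuronal marker rose and 2 fell without a low-count filter, and under relative log expression factors 2 rose and 1 fell. Without that filter 1 vulval or uterine marker rose and 2 fell. Of 6 body wall muscle markers, 4 rose, 2 fell and 0 did not pass in UNC5 and 0 rose, 6 fell and 0 did not pass in PATR1 against WT. In sum they stood at 5593 to 5868 CPM in PATR1, 7876 to 8118 CPM in UNC5 and 7870.0 to 8350.0 CPM in WT. Of 7 intestinal markers, 1 rose, 5 fell and 1 did not pass in UNC5 and 2 rose, 5 fell and 0 did not pass in PATR1 against WT. Added up, they came to 58262 to 63577 CPM in PATR1, 28093 to 29186 CPM in UNC5 and 44348 to 44615 CPM in WT, most of it from the yolk genes vit-2 and vit-6. All 7 sperm markers fell in both mutant groups, with a summed level of 286 to 287 CPM in PATR1, 86.9 to 90.9 CPM in UNC5 and 400.2 to 427 CPM in WT. The part of these markers in the values of the hedgehog-related and Patched-related genes was not tested.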

How the data were processed

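As deposited by the authors, each library has whole-number counts of reads for every gene, unstranded and by strand, with no normalization. The reverse-strand counts were used. The submitters' processing notes name FastQC 0.11.9, cutadapt 3.5, STAR 2.7.11b and WBcel235, and WS288 and DESeq2 are named in the design text. All 85 symbols matched an identifier in the files, and gene positions and exon lengths came from the Ensembl release of WBcel235 given with the data. Genes were filtered with filterByExpr and scaled with TMM factors (0.954 to 1.04), and all 9 libraries were fitted in 1 robust quasi-likelihood model of edgeR 4.0.16 (limma 3.58.1, R 4.3.3), with Benjamini-Hochberg adjustment over the 17512 genes tested; the common biological coefficient of variation was 3.14%. TPM was computed from the counts and the union of exons. Tables and plots were made in Python 3.11.15 (pandas 2.3.3, matplotlib 3.10.9). The procedure was tested on simulated data, with the common spread for every gene and changes only in genes with ample reads. Those changes were far smaller than those of the lowest genes here. The simulation therefore cannot vouch for genes near 0 reads or with a wide spread.

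The alternatives were unstranded counts, a floor of 5 CPM in 3 libraries, which left 11491 genes, all 26606 genes with a read, relative log expression factors, scaling by library size only, DESeq2 1.42.0 with its Wald test, fits of the 6 libraries of a comparison, a replicate block, and omission of each library in turn. Per-library values were given for hog-1, qua-1, the ptc genes, unc-5, the most abundant gene of each family, and the 5 largest called rises and falls without overlap in each comparison, beside others chosen after their values were seen. The members, the lists and this rule were chosen with earlier results of these data known. Promoter and protein sequences were not analysed here. Intervals are at the 95% level, use the same SE as the log2 fold changes and cover the spread between libraries of the fit.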

Additional observations from a re-analysis of the deposited data

Results flagged for a closer look

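The changes of the mutant groups against WT both passed the test with opposite signs for 35 of the 80 tested genes. Of all genes tested, 76.8% passed in UNC5 and 83.6% in PATR1 against WT. How many of all genes passed with opposite signs was not counted, so the 35 genes have no background share beside them. For 8 of the 35 genes, at least 1 of the changes against WT and the difference between PATR1 and UNC5 were also more than 2-fold. That difference was tested in edgeR's quasi-likelihood fit with Benjamini-Hochberg adjustment. wrt-8 and grl-27 were higher in PATR1 and lower in UNC5 than in WT, and their log2 fold changes in PATR1 against UNC5 were 2.40 ± 0.060 (adjusted p = 4.92e-26) and 2.83 ± 0.18 (adjusted p = 4.26e-15). The other 6 were lower in PATR1 and higher in UNC5 than in WT. Of these, ptr-22 had -3.87 ± 0.10 (adjusted p = 3.98e-25), wrt-10 -1.65 ± 0.043 (adjusted p = 1.09e-25) and ptr-10 -1.60 ± 0.074 (adjusted p = 5.67e-19). grl-10 had -1.40 ± 0.054 (adjusted p = 6.62e-21), ptr-15 -1.31 ± 0.073 (adjusted p = 8.61e-17) and wrt-1 -1.15 ± 0.042 (adjusted p = 8.91e-22). The rise of ptr-15 in UNC5 and the fall of wrt-1 in PATR1 were small and lost their calls under some alternatives. Since both changes use the same WT libraries, the opposite signs are a description.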

How the results depend on the processing

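The log2 fold changes of 128 genes, the 80 tested members, the pathway and moulting lists and unc-5, gave 5299 values under the alternatives. Of these, 5003 kept their direction and their side of the threshold, and 90 changed sign but passed under neither setting. In UNC5 against WT 42 came to pass, 63 no longer passed and 17 turned direction. In PATR1 against WT these were 16, 18 and 2, and in PATR1 against UNC5 7, 40 and 1. Without a low-count filter the UNC5 values turned to -0.1553 for wrt-5, -0.0925 for grd-5, -0.1665 for grl-4, -0.0022 for ptr-15, -0.1429 for ptr-20, -0.0235 for ncr-1, -0.0087 for rib-2, -0.0459 for grh-1, -0.0112 for nhr-85, -0.0073 for lin-29 and -0.071 for let-653. With only the 6 libraries compared they turned to -0.1261 for ptr-20, -0.0068 for ncr-1, -0.0293 for grh-1 and -0.0543 for let-653, which was at -0.0058 under relative log expression factors and -0.0057 in DESeq2. In PATR1 against WT kin-19 turned to -0.093 with library sizes alone and -0.0825 at 5 CPM in 3 libraries, and in PATR1 against UNC5 ptr-21 turned to 0.0175 without a low-count filter. For the counts of genes, those that moved by more than 1.5 times did so under the filters and scalings. In UNC5 against WT, 2 genes were called more than 2-fold higher at 5 CPM in 3 libraries. In PATR1 against WT, 0 were called higher with library sizes alone and 0 at 5 CPM, where 3 rose. In PATR1 against UNC5, 23 were called lower without a low-count filter, and at 5 CPM 5 rose and 2 were called higher. The filter at 5 CPM tests fewer genes by construction, and for the others the cause was not tested.

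Leaving out 1 library at a time gave, in UNC5 against WT, 39 to 40 rises, 27 to 29 falls, 5 to 7 genes called higher and 16 to 18 called lower. In PATR1 against WT it gave 5 to 7 rises, 63 to 66 falls, 1 called higher and 22 to 24 called lower. In PATR1 against UNC5 it gave 8 rises, 58 to 62 falls, 3 to 4 called higher and 30 to 37 called lower. Over all genes tested, deviations from the group means were nearly uncorrelated between libraries with the same replicate number (correlations -0.0461 to 0.0419). Counting error enters these values, so they cannot show whether such libraries were grown or prepared together. With the number as a replicate block, 41 genes rose and 29 fell in UNC5 against WT, 5 rose and 66 fell in PATR1 against WT, and 8 rose and 63 fell in PATR1 against UNC5. Depth limits the genes with under about 1 CPM, such as grl-11, grl-26, grd-8 and ptr-9, for which 1 library can move the value.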

Other observations

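Members of the families that lie near each other did not always move together. The adjacent genes grd-14 and grd-4, and grl-9 and grl-8, differed as given above. By contrast, grd-13, grd-3 and grd-10 had the same direction in each comparison. wrt-1 and wrt-10 lie 15 bases apart on opposite strands of chromosome II, with no other protein-coding gene between them. Both were higher in UNC5 than in WT, with log2 fold changes of 1.05 and 0.56, but in PATR1 against WT wrt-1 had -0.098 and wrt-10 -1.09. wrt-7 and wrt-8 lie 4548 bases apart on the same strand of chromosome V with 2 protein-coding genes between them, and had -5.16 and 1.06 in PATR1 against WT. ptr-21, a receptor gene, and grl-16 lie 15463 bases apart on chromosome I, with 3 protein-coding genes between them, and both fell in both mutant groups, at -0.49 and -0.12 in UNC5 and -0.62 and -0.78 in PATR1 against WT. Whether neighbours share regulation was not tested.

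Among the glial markers, of which 2 rose and 1 fell in UNC5 and 1 rose and 3 fell in PATR1 against WT, delm-2 stood out with 14, 13.2 and 12.8 CPM in PATR1, 2.06, 1.82 and 1.82 CPM in UNC5 and 0.219, 0.184 and 0.159 CPM in WT, or log2 fold changes of 3.32 ± 0.19 (adjusted p = 1.80e-16) in UNC5 and 6.14 ± 0.12 (adjusted p = 8.22e-29) in PATR1 against WT. The seam cell marker nhr-73 had 1.38, 1.01 and 1.47 CPM in PATR1, 0.102, 0.147 and 0.109 CPM in UNC5 and 0.422, 0.485 and 0.524 CPM in WT, at -1.98 ± 0.34 (adjusted p = 4.37e-06) in UNC5 and 1.45 ± 0.19 (adjusted p = 1.73e-08) in PATR1 against WT. The adult cuticle collagen col-19 had 768, 781 and 781 CPM in PATR1, 325, 333 and 336 CPM in UNC5 and 902, 887 and 894 CPM in WT, at -1.43 ± 0.033 (adjusted p = 1.49e-27) in UNC5 and -0.20 ± 0.032 (adjusted p = 6.85e-07) in PATR1. These 3 genes were picked after their values were seen.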
